A study of Mus musculus with 63 samples.

Results

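The libraries described here measured how area CA3 of synaptopodin-deficient tissue cultures responded to the loss of its entorhinal input. They were chosen by their labels alone and comprise 12 of the 63 libraries of the series, 6 from non-lesioned control cultures and 6 from cultures at 3 days after entorhinal cortex lesion (ECL). Every library was made from bulk RNA of a CA3 area cut by scalpel from a single organotypic entorhino-hippocampal culture. All 12 carry the Synpo-/- label (B6.129-Synpotm1Mndl/Dllr), so control and lesioned cultures share the allele. The cultures came from neonatal mice of either sex and had matured in vitro for weeks before the lesion, in which the entorhinal cortex was severed from the hippocampus with a scalpel blade. Lesioned and control cultures differ in this cut as well as in the input it removes. For comparison, 5 libraries of Synpo+/+ CA3 (2 control, 3 ECL; C57BL/6J) and 11 libraries of the Synpo-/- dentate gyrus (DG; 7 control, 4 ECL) were used. The labels call the libraries biological replicates but do not tell which cultures came from the same animal, nor which CA3 and DG samples came from the same culture. The p-values therefore measure the spread between cultures. In bulk RNA, a lower level can reflect fewer cells of a type or less RNA per cell, and these cannot be told apart.

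The perforant path carries axons of entorhinal neurons to the outer dendrites of dentate granule cells and to the distal apical dendrites of CA3 pyramidal cells. Cutting it removes part of the excitatory input of both, and the severed axons and their myelin degenerate over days while astrocytes and microglia react. Synaptopodin is an actin-binding protein of the spine apparatus, a stack of endoplasmic reticulum in dendritic spines, and mice lacking it form no spine apparatus. Immediate early genes, such as Egr1, Arc and Fos, are transcribed within minutes of calcium entry or growth factor signalling and are the usual readout of recent neuronal activity.

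Total counts ranged from 15485910 to 27138441 in the control and from 21657030 to 26810419 in the ECL libraries. The CA3 identity of the tissue was checked by 14 pyramidal cell markers, whose summed level (CPM, counts scaled to the library size) was 1769 to 2129 in control and 1384 to 2162 in ECL libraries, against 686 to 1053 in control DG. Control replicate 1 held more Prox1, a dentate granule cell factor, than the other CA3 libraries (40.3 CPM against 14.6 to 25.5), whereas control DG held 123 to 198 CPM. The summed level of 14 dentate granule cell markers was 453 to 571 CPM in control and 415 to 510 CPM in ECL CA3 libraries. In control DG it was 897 to 1269 CPM. CA3 and DG levels were scaled separately. ECL replicate 6 stood apart from the others. It had the most genes with a count (44727), the lowest mean correlation with the other 11 libraries (0.965, against 0.975 to 0.979) and 1971 CPM of the presynaptic gene Snap25, against 3370 to 5447 in the others. Prox1 and Snap25 were chosen after their values were seen. Xist and the Y-linked genes divided the libraries into 7 with Xist RNA (4 control, 3 ECL; 115 to 230 CPM) and 5 with Y-linked RNA (control replicates 5 and 6, ECL replicates 1, 2 and 3). Reads of the Synpo gene were present in all 12 libraries, at 30.4, 37.4 and 44.2 CPM (lowest, median and highest) in control and 33, 37.9 and 42.0 CPM after ECL, with a log2 fold change of 0.02 (SE 0.10, adjusted p = 0.988). These counts were not below those of Synpo+/+ CA3 (25.0 to 25.4 CPM in control, 30.6 to 33.5 CPM after ECL). Counts were summed over the whole gene without regard to strand, and which exons the allele removes is not given in the sources used here, so the level of Synpo RNA does not check the genotype and the Synpo-/- label is taken as given.

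Few genes passed the test in synaptopodin-deficient CA3. Of 20772 genes tested, 16 changed at an adjusted p under 0.05 (0.0770%), 11 upwards (0.0530%) and 5 downwards (0.0241%). The genes that rose were the activity-regulated genes Egr1, Egr2, Arc, Npas4 and Ptgs2, the glial or inflammatory genes A2m, Ccl12, Steap4 and S100a11, the transport protein gene Ttr and the unnamed transcript Gm47088. The genes that fell were the myelin genes Mbp, Mobp and Tspan2, the cytochrome P450 gene Cyp2d22 and the presynaptic priming factor gene Unc13c. The lowest and highest libraries of the groups did not overlap for 14 of the 16, while over all genes tested 0.183% were higher and 0.265% lower without overlap. At an unadjusted p under 0.05 there were 1510 genes (7.27%), and the median over all 20772 log2 fold changes was 0.0011. The number of calls depended on single libraries, from 5 without control replicate 2 to 22 without ECL replicate 6, with 8 without ECL replicate 2, 9 without control replicate 3, 9 without ECL replicate 4 and 10 without ECL replicate 3. The direction of all 16 was the same in each of these fits and all 16 passed without ECL replicate 6.

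**Figure D1:**
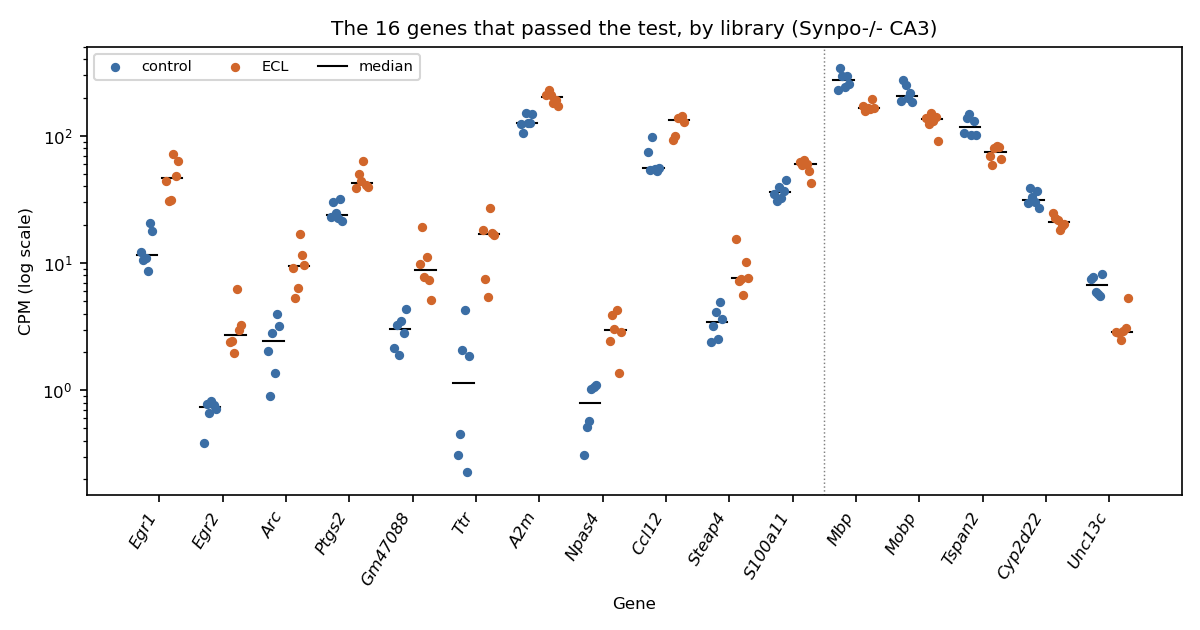
Expression in CPM (log axis) of the 16 genes that passed the test, in each of the 6 control (blue) and 6 ECL (orange) libraries of Synpo-/- CA3, with the group median as a line; the dotted line separates the 11 genes that rose from the 5 that fell. Control and ECL points do not overlap for 14 genes and overlap for Ccl12 and S100a11.

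Of the genes that rose, Egr1, Egr2, Arc, Npas4 and Ptgs2 are activity-regulated, and Egr1 and Egr2 had the smallest p-values of all genes. Egr1, a zinc finger transcription factor, was at 8.73, 11.6 and 20.6 CPM (lowest, median and highest) in control and 30.7, 46.3 and 72.3 CPM after ECL. Every ECL library was above every control library, and Egr1 rose 3.57-fold (log2 fold change 1.84, SE 0.23, adjusted p = 0.00814). Its relative Egr2 (chr10:67535475-67542188) went from 0.388, 0.738 and 0.824 CPM to 1.95, 2.70 and 6.23 CPM, again without overlap, and rose 4.67-fold (log2 2.22, SE 0.30, adjusted p = 0.00908). Arc (chr15:74669083-74672570), whose product promotes removal of AMPA receptors from synapses, was at 0.902, 2.42 and 4.00 CPM in control and 5.34, 9.42 and 17.1 CPM after ECL. The groups were separate and Arc rose 4.05-fold (log2 2.02, SE 0.31, adjusted p = 0.0219). Npas4, a transcription factor induced by calcium entry in neurons, was low in both groups, at 0.310, 0.797 and 1.09 CPM against 1.36, 2.97 and 4.24 CPM. It rose 3.87-fold (log2 1.95, SE 0.33, adjusted p = 0.0249). Ptgs2 (chr1:150100031-150108227), the inducible cyclooxygenase that excitatory neurons of the forebrain express, moved from 21.6, 23.9 and 32.1 CPM to 39.3, 42.6 and 64.0 CPM. The increase was 1.81-fold (log2 0.85, SE 0.13, adjusted p = 0.0219), smaller than that of the transcription factors, and the groups did not overlap.

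Egr1, Egr2 and Arc passed whichever single library was left out, with adjusted p-values up to 0.0299, 0.0299 and 0.0479. Ptgs2 did not pass without ECL replicate 2 (adjusted p = 0.0514). Npas4 did not pass without control replicate 2 or 3 or ECL replicate 2, 3 or 4 (adjusted p up to 0.0939).

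The promoters of Egr2 and Npas4 are shown because they hold letters of elements through which calcium signals are known to act, and the Egr2 window was chosen for holding them. The sequences are from RefSeq (GRCm38.p6) and end upstream of a RefSeq transcription start. In the annotation deposited with the counts, both lie inside the gene (Egr2 chr10:67535475-67542188, Npas4 chr19:4984355-4990316). They are therefore downstream of the first start given there. For Egr2, 1 of 5 annotated windows is printed, chr10:67537619-67537868, plus strand, from 250 bases to 1 base before the start. For Npas4, 30 bases are printed, chr19:4990128-4990157, minus strand, from 186 to 157 bases before the start. Capitals mark the core of the cyclic AMP response element (TGACG or CGTCA, either strand) and, in Egr2, a CArG box, the site of serum response factor.
Egr2: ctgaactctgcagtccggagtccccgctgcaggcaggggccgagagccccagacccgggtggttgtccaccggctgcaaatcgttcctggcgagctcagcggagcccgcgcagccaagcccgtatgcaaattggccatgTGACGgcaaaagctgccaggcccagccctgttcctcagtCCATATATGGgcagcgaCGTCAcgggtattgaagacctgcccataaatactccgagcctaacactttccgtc
Npas4: cgttcgaCGTCAcgggaTGACGtcggaagt

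Egr2 carried such cores 111 and 55 bases and a CArG box 72 bases before this start, and Npas4 carried cores 179 and 169 bases before its start. At least 1 core was found in 17.8% of 32851 promoter windows of the same length, 2 or more in 3.9%, and a CArG box in 1.47%. Of the 5 Egr2 windows, 3 held 2 cores each and the other 2 held none, and none was found for Ptgs2, the other activity-regulated gene with a window. The cores of the 3 Egr2 windows had the same spacing (111 and 55, 112 and 56, 172 and 116 bases before the start). They do not count as separate pairs of sites. A match describes these letters and does not show binding. Of the 16 genes that passed, 9 were matched to a promoter window.

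Of 27 listed immediate early transcription factors, 26 passed the filter on low counts and were tested. Among them 3 rose (Egr1, Egr2 and Npas4) and none fell (0.0530% and 0.0241% of all genes). Of the 26, 11 were higher and 0 lower at an unadjusted p under 0.05 (background 3.79% and 3.48%), 21 had a log2 fold change above 0 (background 50.2%), and the median was 0.28. This list and those below were chosen with earlier results of these data known, so their counts are descriptions. Ier2 did not pass (log2 1.32, adjusted p = 0.0828). Fos, Nr4a1, Btg2 and Junb are given although their values were seen before they were chosen. Fos was at 18.0, 23.0 and 33.2 CPM in control and 26.8, 40.6 and 65.1 CPM after ECL, with overlap (log2 0.79, SE 0.19, adjusted p = 0.232). The log2 fold changes were 0.74 for Nr4a1, 0.90 for Btg2 and 0.76 for Junb, with adjusted p-values of 0.372, 0.133 and 0.533. Of 27 activity-induced effector genes 2 rose (Arc and Ptgs2, against 0.0530% of all genes), and the median of the 27 was 0.05. Of 12 feedback inhibitors of MAP kinase signalling none passed, 4 were higher at an unadjusted p under 0.05, and 11 had values above 0. Their member Dusp6, an ERK phosphatase, was at 11.9, 15.3 and 19.4 CPM in control and 20.4, 23.4 and 33.1 CPM after ECL, without overlap (log2 0.69, adjusted p = 0.0638).

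Gm47088 (chr13:93317427-93319065, plus strand) is a transcript still to be experimentally tested that lies within Homer1 (chr13:93299635-93405129) on the same strand and shares no exon base with it. It was at 1.90, 3.05 and 4.37 CPM in control and 5.11, 8.85 and 19.3 CPM after ECL. The groups were separate, and it rose 3.37-fold (log2 1.75, SE 0.28, adjusted p = 0.0219). Homer1, a postsynaptic scaffold gene named here after its values were seen, had a log2 fold change of 0.06 (SE 0.09, adjusted p = 0.938). The counts do not tell reads of Gm47088 from those of unspliced Homer1 RNA. Without control replicate 2, 3 or 5 or ECL replicate 4, Gm47088 did not pass (adjusted p up to 0.0821).

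Of the myelin genes, Mbp, Mobp and Tspan2 fell after ECL. Mbp, which encodes the myelin basic protein that compacts the sheath, was at 228, 277 and 339 CPM in control and 158, 166 and 194 CPM after ECL. No ECL library reached the lowest control library, and Mbp fell to 0.615 of the control level (log2 -0.70, SE 0.10, adjusted p = 0.0108). Mobp (chr9:120149707-120181484), the myelin-associated oligodendrocyte basic protein gene, was at 183, 208 and 274 CPM in control and 91.5, 135 and 152 CPM after ECL. It fell to 0.593 of control (log2 -0.75, SE 0.13, adjusted p = 0.0249), also without overlap. Tspan2 (chr3:102734529-102801513), a tetraspanin of oligodendrocytes, was at 101, 117 and 149 CPM in control and 58.7, 75.2 and 82.9 CPM after ECL. This was a decrease to 0.609 of control (log2 -0.72, SE 0.12, adjusted p = 0.0249), again with all ECL libraries below all control libraries. Mobp shares 79 exon bases with Gm38642 and Tspan2 shares 88 with the antisense gene Tspan2os, and reads in these bases cannot be assigned to either gene of a pair.

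Of 31 listed myelin and mature oligodendrocyte genes, 30 passed the filter on low counts and were tested. Among them 3 fell (Mbp, Mobp and Tspan2) and none rose (0.0241% and 0.0530% of all genes). At an unadjusted p under 0.05, 18 were lower and 0 higher (background 3.48% and 3.79%), and 28 of the 30 had a log2 fold change below 0. The list's median was -0.46, against 0.0011 over all genes, and 8 members were lower without overlap of the groups (background 0.265%). Mag, an adhesion protein between sheath and axon, was at 11.3, 14.6 and 17.8 CPM against 5.42, 8.38 and 10.9 CPM and did not pass (log2 -0.81, adjusted p = 0.0596). The same held for Cldn11 (-0.66, adjusted p = 0.0688), Ugt8a (-0.74, adjusted p = 0.0777) and Mal (-0.72, adjusted p = 0.0777). Cnp and Trf, named after their values were seen, had log2 fold changes of -0.44 and -0.19 (adjusted p = 0.354 and 0.870). In contrast, 17 genes of the oligodendrocyte lineage and its precursors had a median of -0.05, and 0 of them passed at either threshold.

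Summed over the list, myelin RNA was 2655, 3173 and 4118 CPM in control and 1900, 2304 and 2680.0 CPM after ECL, and only the highest ECL library reached the lowest control library. Mbp passed in all 12 fits that left out a library (adjusted p up to 0.0425), but not in a fit with all 4 CA3 groups (adjusted p = 0.0859). Mobp did not pass without control replicate 2, 3 or 5 or ECL replicate 2 or 4, and Tspan2 not without control replicate 2, 3 or 5 or ECL replicate 1 or 2 (adjusted p up to 0.0939 for both). Neither passed with the log2 ratio of Xist to Y-linked counts as a covariate, with all 4 CA3 groups in one fit or with the length trend removed (adjusted p up to 0.177 for Mobp and 0.0607 for Tspan2).

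**Figure D2:**
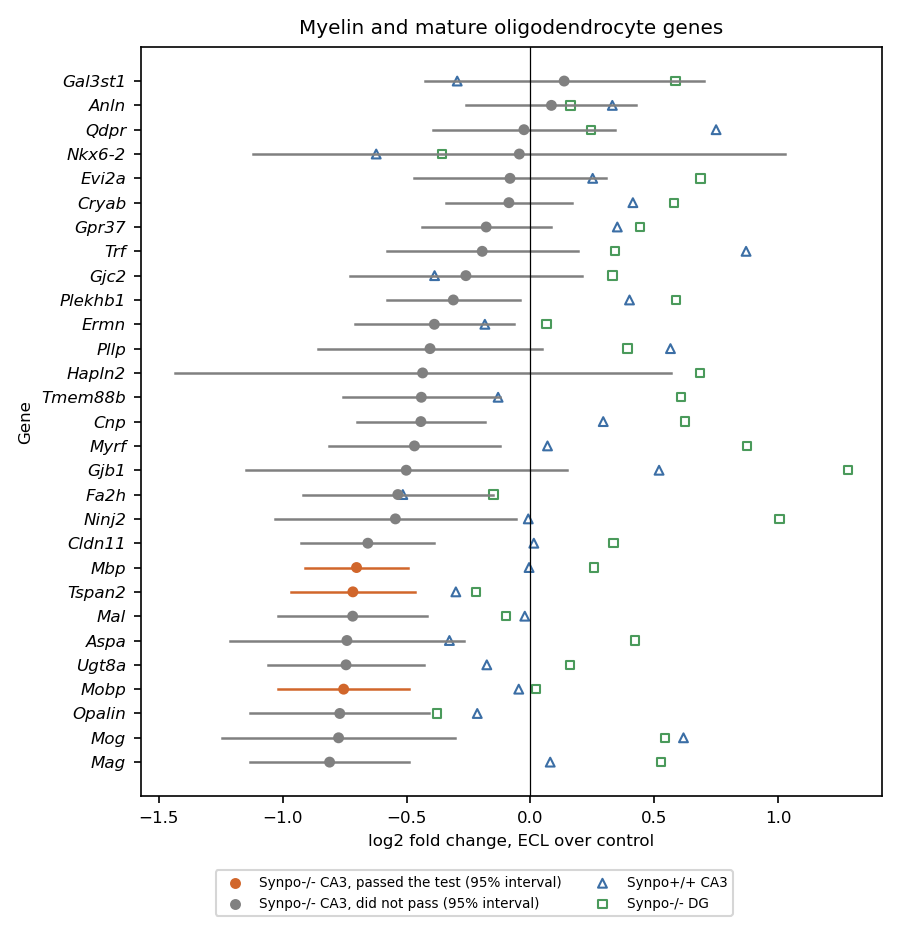
Log2 fold change (ECL over control) of 29 of the 30 myelin and mature oligodendrocyte genes in Synpo-/- CA3 (circles with 95% intervals, orange for Mbp, Mobp and Tspan2, which passed the test), Synpo+/+ CA3 (triangles) and Synpo-/- DG (squares). In Synpo-/- CA3 27 of the 29 genes lie left of 0, while 14 of 28 in Synpo+/+ CA3 and 24 of 29 in Synpo-/- DG (background 51.8%) lie right of it.

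The Mobp promoter is shown because it is the matched myelin promoter richest in CTTTGT, the core of the Sox box that oligodendrocyte Sox factors bind. The RefSeq sequence (GRCm38.p6) is chr9:120149492-120149706, plus strand, from 250 to 36 bases before the RefSeq start, with CTTTGT in capitals.
Mobp: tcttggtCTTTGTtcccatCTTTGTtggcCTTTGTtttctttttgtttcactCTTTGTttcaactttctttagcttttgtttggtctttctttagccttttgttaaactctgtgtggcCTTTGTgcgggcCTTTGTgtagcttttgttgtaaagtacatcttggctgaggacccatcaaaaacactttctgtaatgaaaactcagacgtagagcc

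The 6 copies begin 243, 231, 221, 198, 132 and 120 bases before the start. The motif (ACAAAG or CTTTGT) was found in 16.5% of the 32851 windows, and 6 copies in 1 window, that of Mobp (0.00304%). The count of copies describes this window and says nothing of binding.

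Cholesterol synthesis, on which the sheath depends for lipid, gave small values. Of 22 genes tested none passed, 5 were lower at an unadjusted p under 0.05 (background 3.48%), 1 had a log2 fold change above 0 (background 50.2%), and the median was -0.21. Hmgcs1, the entry enzyme of the pathway and chosen after its values were seen, had -0.27 (SE 0.10, adjusted p = 0.558).

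A2m, Steap4 and S100a11 rose, and Steap4 belongs to the list of reactive astrocyte genes. A2m (chr6:121635376-121679227), a protease inhibitor gene, was at 105, 126 and 153 CPM in control and 172, 201 and 228 CPM after ECL. The groups did not overlap, and A2m rose 1.52-fold (log2 0.61, SE 0.10, adjusted p = 0.0249). Steap4 (chr5:7960457-7982213), a metalloreductase gene, went from 2.40, 3.44 and 4.95 CPM to 5.61, 7.56 and 15.6 CPM and rose 2.57-fold (log2 1.36, SE 0.24, adjusted p = 0.0308). Its groups were separate as well. S100a11 (chr3:93520488-93526287), which encodes a calcium-binding protein, was at 30.6, 36.1 and 44.9 CPM in control and 42.7, 59.7 and 64.4 CPM after ECL, with the lowest ECL library inside the control range. It rose 1.55-fold (log2 0.63, SE 0.11, adjusted p = 0.0371). Vim, the intermediate filament gene vimentin, did not pass (log2 0.50, adjusted p = 0.0693), although its 265, 306 and 383 CPM in control and 399, 427 and 498 CPM after ECL did not overlap.

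All 22 reactive astrocyte genes tested had a log2 fold change above 0 (background 50.2%), 12 were higher and 0 lower at an unadjusted p under 0.05 (background 3.79% and 3.48%), and the median was 0.35. The only member that passed was Steap4 (0.0770% of all genes passed). Timp1, a metalloproteinase inhibitor, and S1pr3, a sphingosine phosphate receptor, had log2 fold changes of 1.02 and 0.45 (adjusted p = 0.0604 and 0.0777). Gfap, Serpina3n and Lcn2 were chosen after their values were seen. Gfap, the astrocyte filament gene, was at 1356, 1492 and 1539 CPM in control and 1072, 1630.2 and 1887 CPM after ECL. Its ECL libraries reached both above and below the control range, with a log2 fold change of 0.10 (95% interval -0.16 to 0.36, adjusted p = 0.905). Serpina3n and Lcn2, secreted proteins of reactive astrocytes, had 0.57 and 0.74 (adjusted p = 0.206 and 0.102). Of 16 homeostatic astrocyte genes none passed and the median was -0.10.

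These calls were less stable than those of Egr1 and Mbp. A2m did not pass without control replicate 1, 2, 4 or 5 or ECL replicate 1, 2 or 3 (adjusted p up to 0.0939), Steap4 passed only without control replicate 5 or ECL replicate 1, 4 or 6 (otherwise up to 0.124), and S100a11 only without control replicate 6 or ECL replicate 6 (otherwise up to 0.129). With the log2 ratio of Xist to Y-linked counts as a covariate, A2m (0.0501) and Steap4 (0.0572) did not pass, and S100a11 did not pass in 5 of 9 other alternatives (up to 0.144).

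Ccl12 (chr11:82101845-82103400), a chemokine that attracts monocytes, was the only one of 22 chemokine and cytokine genes that passed (0.0770% of all genes passed). It was at 52.7, 55.6 and 98.5 CPM in control and 92.1, 133 and 143 CPM after ECL. The highest control library lay above the lowest ECL library, and Ccl12 rose 1.89-fold (log2 0.92, SE 0.16, adjusted p = 0.0298). Its relatives did not pass, and those named here were chosen after their values were seen. Ccl2 and Ccl7 had log2 fold changes of 0.70 and 1.14 (adjusted p = 0.654 and 0.539), and Ccl3 and Ccl4 had -0.48 and -0.57 (adjusted p = 0.487 and 0.347). The median of the list was 0.01. Ccl12 did not pass without control replicate 2, 4, 5 or 6 or ECL replicate 3, 4 or 5 (adjusted p up to 0.124), nor with the length trend removed (0.0607). Ccl genes of this cluster resemble each other in sequence, so reads shared between them are an uncertainty of these counts.

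The Ccl12 promoter is shown as that of the single chemokine gene called. It is chr11:82101595-82101844, plus strand (RefSeq, GRCm38.p6), from 250 bases to 1 base before the start, and capitals mark a TATA box 31 bases before it. TATAAA or TTTATA occurred in 12.4% of the windows.
Ccl12: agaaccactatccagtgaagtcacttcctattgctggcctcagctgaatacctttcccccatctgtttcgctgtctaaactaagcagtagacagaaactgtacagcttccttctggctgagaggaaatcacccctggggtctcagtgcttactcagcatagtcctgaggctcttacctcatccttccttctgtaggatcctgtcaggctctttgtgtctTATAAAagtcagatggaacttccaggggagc

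The remaining genes that passed have different roles. Ttr encodes transthyretin, a carrier of thyroid hormone and retinol that the choroid plexus makes in large amounts. It was at 0.229, 1.15 and 4.27 CPM in control and 5.45, 16.9 and 27.0 CPM after ECL, without overlap, and rose 10.1-fold (log2 3.33, SE 0.53, adjusted p = 0.0219). It was the only gene of the meningeal, fibroblast and choroid plexus list that passed (0.0770% of all genes passed). Of 13 tested, 2 were above 0 and the median was -0.27, and the choroid plexus genes Folr1 and Kl, chosen after their values were seen, had -0.36 and -0.42 (adjusted p = 0.866 and 0.686). The summed level of that list was 120.1 to 294 CPM in control and 99.8 to 192 CPM after ECL. In the Synpo-/- DG, Ttr was at 1.07 to 56.4 CPM in control and 5.64 to 8869 CPM after ECL (log2 6.62, SE 1.42). Whether the Ttr reads of CA3 came from a trace of choroid plexus was not tested. Ttr did not pass without control replicate 2 or ECL replicate 4 (adjusted p up to 0.0844).

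Cyp2d22 (chr15:82370527-82380260), a cytochrome P450 gene, was at 27.2, 31.5 and 39.2 CPM in control and 18.1, 20.9 and 24.6 CPM after ECL. It fell to 0.647 of control without overlap (log2 -0.63, SE 0.11, adjusted p = 0.0249). Genes of its family are similar in sequence, so its counts are uncertain where reads are shared. Unc13c (chr9:73479422-73968966), a Munc13 protein gene that primes synaptic vesicles, was at 5.49, 6.66 and 8.27 CPM in control and 2.50, 2.88 and 5.36 CPM after ECL. It fell to 0.484 of control (log2 -1.05, SE 0.19, adjusted p = 0.0445). The highest ECL library was replicate 6, and the groups stayed just apart. Of the fits that left out a library, Unc13c passed only in that without ECL replicate 6 (otherwise adjusted p up to 0.131), and Cyp2d22 did not pass without control replicate 2, 3 or 5 or ECL replicate 2, 3, 4 or 5 (up to 0.0939). Unc13c did not pass with the ratio of Xist to Y-linked counts or dentate markers as a covariate either (up to 0.0718). Among genes that did not pass, Fgf1, a fibroblast growth factor, went from 15.3, 17.0 and 19.6 CPM to 9.31, 10.9 and 13.5 CPM, and Gm49980 from 2.92, 3.20 and 4.77 CPM to 0.924, 1.32 and 2.30 CPM (log2 -0.62 and -1.22, adjusted p = 0.0565 for both). Both were without overlap. Sprr1a, a gene known from injured neurons, was at 0.258, 0.348 and 0.588 CPM in control and 0.840, 1.18 and 8.53 CPM after ECL (log2 2.89, adjusted p = 0.0693).

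No microglial, complement or interferon gene passed. Of 16 homeostatic microglia genes the median log2 fold change was -0.16, with 6 above 0. Of 24 complement, lysosomal and phagocytic genes the median was -0.09, with 9 above 0. Of 29 interferon-stimulated genes it was -0.07, with 12 above 0, and single libraries left out moved it between -0.19 (without control replicate 6) and 0.11 (without control replicate 3), with 0.01 without ECL replicate 5 or 6. Aif1, the gene of the microglial marker Iba1, had 0.13 (adjusted p = 0.840), and C1qc, a subunit of the first complement component, had -0.19 (adjusted p = 0.835). Aif1, C1qc, Trem2 and Apoe were chosen after their values were seen. Trem2, a lipid receptor of microglia, had -0.41 (adjusted p = 0.533). Apoe varied widely, from 359 to 1050.2 CPM in control and 419 to 1519 CPM after ECL (log2 0.61, SE 0.31, adjusted p = 0.718).

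These lists differed between the libraries with Xist RNA and those with Y-linked RNA, a comparison added after seeing the data. In the former, the median log2 difference between ECL and control was -0.45 for the microglia list (2 of 16 genes above 0) and -0.41 for the interferon list (2 of 29). In the latter it was 0.57 (16 of 16) and 0.47 (27 of 29). Over all genes, the lesion effect differed between these classes for 118 of 20772 genes (0.568%, adjusted p under 0.05), among them 5 of the 16 microglia genes and 1 of the 29 interferon genes. The summed microglia level was 856 to 1208 CPM in the 4 control libraries with Xist RNA and 545 and 693 CPM in the pair of control libraries with Y-linked RNA. After ECL it was 570.0 to 813 CPM and 816 to 841 CPM. The class with Y-linked RNA holds 2 control libraries, so its values rest on them. The class with Xist RNA includes ECL replicate 6, without which its ECL libraries were at 805 and 813 CPM of microglia genes, still below its 4 control libraries, and at 2061 and 2098 CPM of interferon-stimulated genes, inside the control range of 1814 to 2780.0 CPM. The myelin list was lower in both classes, with medians of -0.59 and -0.41, and the reactive astrocyte list higher in both, with 0.39 and 0.31. All 16 genes that passed had the same direction in both, though the log2 difference was 2.51 and 0.86 for Egr1 and 2.86 and 0.91 for Arc.

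**Figure D3:**
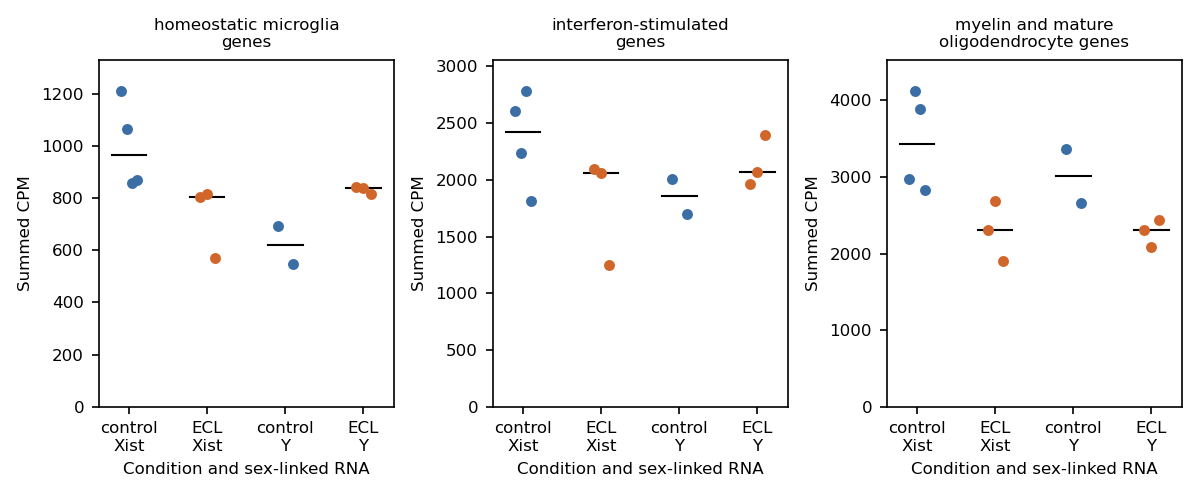
Summed CPM of the homeostatic microglia, interferon-stimulated and myelin lists in each Synpo-/- CA3 library, by condition and by whether the library held Xist or Y-linked RNA, with the median as a line. Microglia sums of control libraries are higher with Xist RNA (856 to 1208) than with Y-linked RNA (545 and 693), whereas myelin sums are lower after ECL in both classes.

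Synaptic genes gave medians near 0. The median log2 fold change was -0.09 for 22 glutamate receptor genes, -0.05 for 25 postsynaptic scaffold genes, -0.08 for 27 synaptic vesicle and release genes, 0.05 for 22 actin regulators and -0.01 for 17 genes of the synaptopodin family and of calcium stores, and none of their members passed. The vesicle priming gene Unc13c, which fell, is not on these lists. Markers of CA3 pyramidal cells, dentate granule cells and interneurons had medians of 0.00, -0.08 and -0.04. Axon growth genes had 0.05 and heat shock genes -0.03. Of 20 proliferation genes tested none passed, 9 were higher and 0 lower at an unadjusted p under 0.05 (background 3.79% and 3.48%), 17 were above 0 (background 50.2%) and the median was 0.36. Their member Mki67, chosen after its values were seen, had 0.70 (adjusted p = 0.236). Endothelial and mural genes had 0.33 (13 of 15 above 0). All 12 mitochondrially encoded genes were above 0, with a median of 0.23 that was -0.00 without ECL replicate 6. For 85 cytosolic ribosomal protein genes the median was 0.17, with 20 higher and 0 lower at an unadjusted p under 0.05 (same background), and for 36 complex I genes it was 0.15. The mitochondrial and ribosomal medians had opposite signs in the libraries with Xist RNA (0.68 and 0.31) and those with Y-linked RNA (-0.39 and -0.09).

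**Figure D4:**
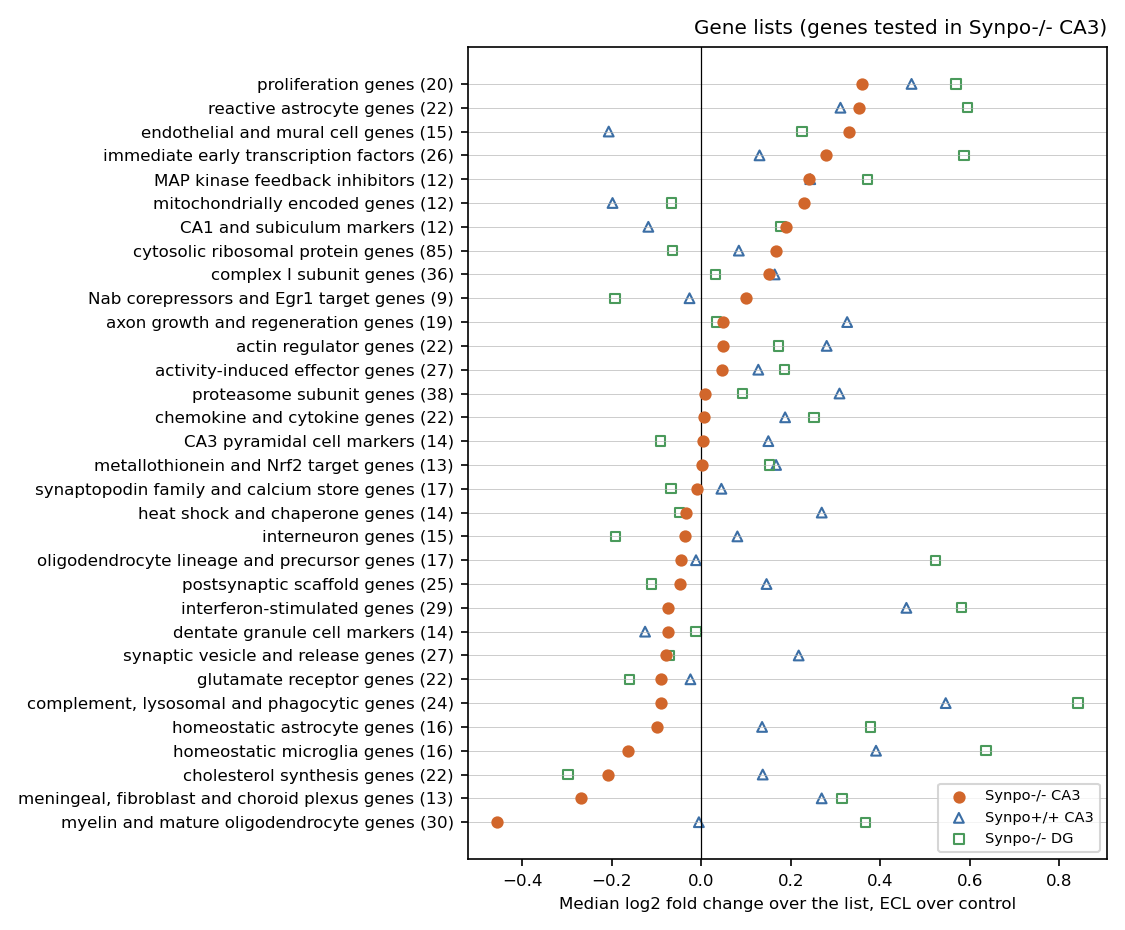
Median log2 fold change (ECL over control) of each gene list in Synpo-/- CA3 (circles), Synpo+/+ CA3 (triangles) and Synpo-/- DG (squares), ordered by Synpo-/- CA3, with the number of genes tested there in parentheses. In Synpo-/- CA3 the myelin list is lowest (-0.46) and the proliferation (0.36) and reactive astrocyte (0.35) lists are highest.

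Whether the response of CA3 differs with genotype was tested against Synpo+/+ CA3, where 397 of 22340 genes passed (1.78%), 336 upwards (1.50%) and 61 downwards (0.273%). With 2 control and 3 ECL libraries this comparison is small. Both Synpo+/+ control libraries held Xist RNA and 2 of the 3 ECL libraries Y-linked RNA, so sex-linked class and lesion are partly confounded there. No gene passed the test of the difference between the genotypes (0 of 26821, edgeR quasi-likelihood, smallest adjusted p = 0.0829). At an unadjusted p under 0.05 there were 4589 (17.1%), while DESeq2 called 379 genes and a fit without the filter on low counts 160. Of the 16 genes that passed in Synpo-/- CA3, all had the same sign in Synpo+/+ CA3, and 3 passed there. These were Gm47088 (log2 1.73, adjusted p = 0.0409), A2m (0.91, 0.0269) and Ccl12 (0.79, 0.0307). Egr1 had 0.82 in Synpo+/+ and 1.84 in Synpo-/- CA3, Arc 0.77 and 2.02, and Egr2 1.89 and 2.22, and for none of them did the difference pass (adjusted p = 0.239, 0.275 and 0.825). Egr1 control levels were 25.3 and 28.1 CPM in Synpo+/+ and 8.73 to 20.6 CPM in Synpo-/- CA3, and ECL levels were 32.4 to 62.2 and 30.7 to 72.3 CPM. These levels were scaled within each genotype and not between the genotypes.

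Mbp had a log2 fold change of -0.01 in Synpo+/+ CA3 and -0.70 in Synpo-/- CA3, Mobp -0.05 and -0.75, and the differences did not pass (adjusted p = 0.190 and 0.254). The myelin list had a median of -0.01 in Synpo+/+ CA3, with 14 of 29 genes above 0 (background 49.1%). The median difference between the genotypes was -0.58, and 12 of 30 members differed at an unadjusted p under 0.05, all lower in Synpo-/-. Over all genes, 17.1% differed at this threshold in either direction. For microglia the medians were 0.39 in Synpo+/+ and -0.16 in Synpo-/- CA3, for complement genes 0.55 and -0.09 and for interferon-stimulated genes 0.46 and -0.07, and for reactive astrocyte genes 0.31 and 0.35. In Synpo-/- CA3 the microglia, complement and interferon medians were 0.57, 0.22 and 0.47 with Y-linked RNA. With Xist RNA they were -0.45, -0.23 and -0.41. Class and lesion are partly confounded in Synpo+/+ CA3, and whether class accounts for the genotype contrasts of these lists was not tested. The 336 genes that rose in Synpo+/+ CA3 had a median of 0.87 there and 0.06 in Synpo-/- CA3. Of them, 195 were above 0 in Synpo-/- CA3 and 3 rose (50.2% and 0.0530% of all genes). The 57 genes that fell in Synpo+/+ CA3 and were tested in Synpo-/- CA3 had medians of -1.96 and 0.07. Of these 57, 31 were above 0 in Synpo-/- CA3 and none fell (50.2% and 0.0241% of all genes).

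The same lesion was compared between CA3 and the dentate gyrus of Synpo-/- cultures, where the perforant path supplies most of the excitatory input. In the DG 1989 of 23310 genes passed (8.53%, with 5.17% upwards and 3.36% downwards), and the lesion effect differed between the regions for 284 of 25435 genes (1.12%), 223 lower in CA3 (0.877%) and 61 higher (0.240%). Of the 16 genes that passed in CA3, 10 passed in the DG in the same direction and none in the opposite one. The sign was the same for 13, while Mbp, Mobp and Cyp2d22, which fell in CA3, had 0.26, 0.02 and 0.09 in the DG. Egr1 had log2 fold changes of 1.84 in CA3 and 2.48 in the DG, Egr2 2.22 and 3.77, Arc 2.02 and 3.28, and Npas4 1.95 and 1.94. None of these differences passed (adjusted p = 0.440, 0.0643, 0.259 and 0.994). In size, the log2 differences (CA3 minus DG) were -0.63, -1.53, -1.24 and 0.03. The early genes Fos, Nr4a1 and Btg2 had smaller effects in CA3 as well, and their differences passed (-1.30, -1.83 and -1.22, adjusted p = 0.0325, 0.00285 and 0.0441). Of 26 immediate early transcription factors, 8 had a larger log2 fold change in CA3 and the median difference was -0.32. Of the 26, 4 passed as lower in CA3 (0.877% of all genes).

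Several glial genes differed between the regions. Gfap had a log2 fold change of 0.10 in CA3 and 1.30 in the DG (difference -1.18, adjusted p = 0.00260), Vim 0.50 and 1.18 (-0.66, 0.0128), S1pr3 0.45 and 1.33 (-0.86, 0.00323) and A2m 0.61 and 1.31 (-0.68, 0.0474). The microglial genes Aif1 (0.13 and 1.08), Trem2 (-0.41 and 0.60) and C1qc (-0.19 and 1.31) differed by -0.92, -0.98 and -1.48. In all, 7 of 16 microglia genes, 12 of 25 complement genes and 4 of 22 reactive astrocyte genes passed with a lower effect in CA3 (0.877% of all genes). Whether or not they passed, 0, 0 and 5 of these genes had a higher log2 fold change in CA3. The median differences of the lists were -0.84, -0.91 and -0.28. Mag (-0.81 and 0.53, difference -1.32, adjusted p = 0.0194) and Cnp (-0.44 and 0.63, -1.05, 0.0162) differed as well, with 3 of 30 myelin genes in all, whereas the differences of Mbp (-0.94, adjusted p = 0.0623) and Mobp (-0.75, 0.436) did not pass. Cyp2d22 had -0.63 in CA3 and 0.09 in the DG (difference -0.70, adjusted p = 0.0375). Unc13c fell in both regions (-1.05 in CA3 and -2.48 in the DG), and less so in CA3 (difference 1.44, adjusted p = 0.0199).

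**Figure D5:**
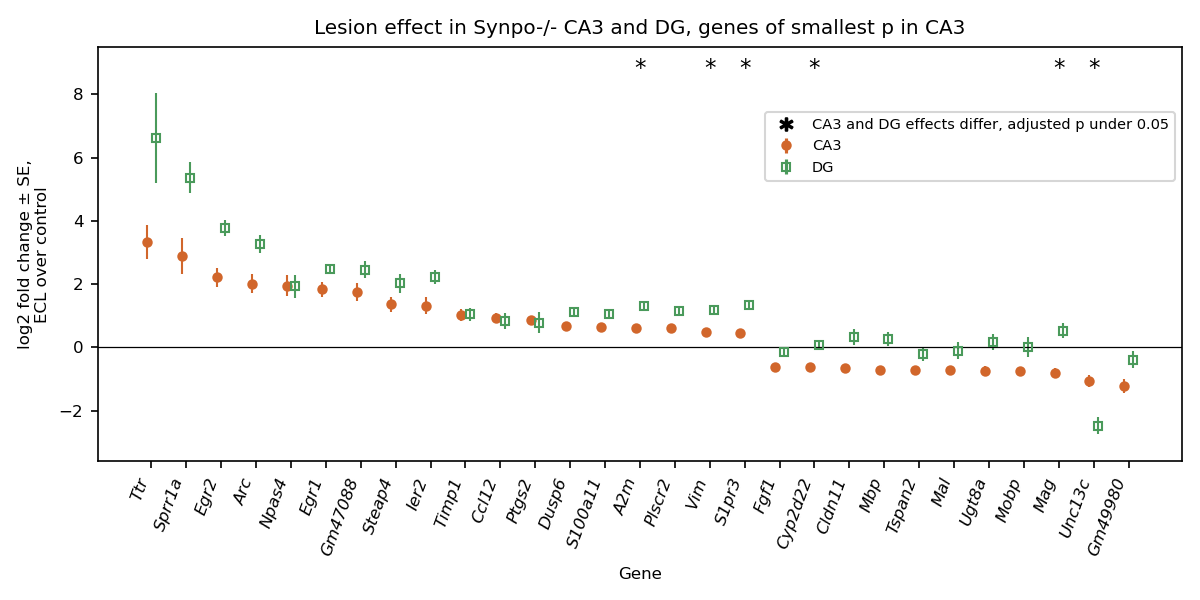
Log2 fold change (ECL over control, ± SE) in Synpo-/- CA3 (filled circles) and Synpo-/- DG (open squares) of 29 of the 30 genes of smallest p in CA3, ordered by the CA3 value; stars mark genes whose effect differs between the regions (adjusted p under 0.05). Stars stand over A2m, Vim, S1pr3, Cyp2d22, Mag and Unc13c, and the myelin genes lie below 0 in CA3 and near or above 0 in the DG.

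The 5 genes of smallest p in each direction of the difference between the regions all changed in the DG and did not pass in CA3. The astrocyte genes Slc25a18, a mitochondrial glutamate carrier, and Aldh1l1, a folate enzyme, had -0.17 and -0.10 in CA3 and 1.09 and 0.79 in the DG. The oligodendrocyte gene Bcas1 had -0.21 and 1.32, the macrophage receptor gene Adgre1 -0.43 and 1.18, and the crystallin gene Cryba4 -0.26 and 1.79. In the other direction, the zinc finger gene Tshz2 had 0.40 in CA3 and -1.40 in the DG, its relative Tshz3 -0.03 and -0.94, the angiogenic factor gene Vegfa 0.23 and -0.86, Dzank1 -0.10 and -0.90 and the transcript 9130024F11Rik 0.36 and -1.74. The adjusted p-values of these 10 differences were 0.00118 to 0.00531. The 1201 genes that rose in the DG and were tested in CA3 had a median log2 fold change of 0.66 there and 0.05 in CA3. Of them, 726 were above 0 in CA3 and 9 rose (50.2% and 0.0530% of all genes). The 763 genes that fell in the DG had -0.52 there and -0.09 in CA3, where 214 were above 0 and 1 fell (50.2% and 0.0241% of all genes).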

How the data were processed

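The authors trimmed reads (cutadapt 3.5), mapped them to mm10 (STAR 2.7.8a), and counted them per gene without regard to strand (featureCounts 2.0.1; versions from the submitters' processing notes). Libraries were made with a low-input kit, which amplifies cDNA and carries no molecular identifiers, so counting error alone understates the spread between libraries. The deposited values are whole-number counts, not normalized, for 55291 gene symbols. Positions follow GRCm38 from the annotation deposited with the counts.

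Libraries were grouped by their labels. Each lesion effect was fitted on its own control and ECL libraries, and each difference between lesion effects as an interaction over 4 groups, with edgeR 4.0.16 in R 4.3.3 (TMM, filterByExpr, quasi-likelihood test). Adjustment was by Benjamini-Hochberg across the genes tested in each comparison, and genes passed at an adjusted p under 0.05. Levels are CPM over TMM-scaled library sizes, given as lowest, median and highest library. The TMM factors for levels were fitted within each lesion comparison, so levels of different genotypes or regions were not scaled to each other. Log2 fold changes are ECL over control, and ± or SE is the standard error of the fit. Fits were tested on simulated data with known changes.

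Genes named are among the 30 of smallest p (1 of which is not reported here), Synpo, sex-linked genes, called list members and up to 5 genes of smallest p in each direction of each interaction. Others are said to be chosen after their values were seen. The members and lists were chosen with earlier results of these data known. List counts and medians are descriptions.

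Alternatives were DESeq2 1.42.0, RLE size factors, no filter, a mean normalized count over 300, limma 3.58.1 voom with quality weights and a replicate block. Further ones were a sex-linked covariate or dentate markers as a covariate, all 4 CA3 groups in one fit, a length trend removed (lowess span 0.3, mean count over 50) and leaving out each library. The sex-linked covariate was the continuous log2 ratio of Xist to summed Y-linked counts. An interaction of lesion with sex-linked class was added after seeing the data. Promoter windows (RefSeq, GRCm38.p6) were searched on both strands over the 250 bases before the start. The CArG box was searched as CC, 6 A or T, GG.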

Additional observations from a re-analysis of the deposited data

Results flagged for a closer look

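In 164 groups of values examined, 9 had a library apart from the rest by Dixon's test at the 95% level, and chance gives about 1 in 20 groups. Control replicate 1 had the lowest Egr2 level (0.388 CPM, nearest library 0.664), and control replicate 5 the highest Nr4a1 level (5.75 CPM, nearest 3.64). ECL replicate 4 had the highest Egr2 (6.23 CPM, nearest 3.27) and Dusp6 (33.1 CPM, nearest 25.1) levels. ECL replicate 6 had the highest Unc13c level (5.36 CPM, nearest 3.06) and the lowest summed levels of homeostatic microglia genes (570.0 CPM, nearest 805), interferon-stimulated genes (1250.3 CPM, nearest 1967), synaptic vesicle and release genes (6254 CPM, nearest 8897) and proteasome subunit genes (6183 CPM, nearest 8156).

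The lesion effect differed between CA3 and DG of Synpo-/- cultures for 284 genes. Among the 30 genes of smallest p in CA3 and those chosen after their values were seen, the effect in CA3 minus that in DG passed the test and was negative for A2m (-0.68), Cyp2d22 (-0.70), Mag (-1.32), Vim (-0.66), S1pr3 (-0.86), Fos (-1.30), Nr4a1 (-1.83), Btg2 (-1.22), Gfap (-1.18), Cnp (-1.05), Aif1 (-0.92), Trem2 (-0.98) and C1qc (-1.48), on the log2 scale, and positive for Unc13c (1.44). The 10 genes named for the smallest p of this difference, 5 in each direction, are given in the report with their values in both regions.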

How the results depend on the processing

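The number of genes called in Synpo-/- CA3 was 16 and became 67 with DESeq2, 86 without the filter on low counts, 30 with voom, 10 with the sex-linked covariate, 9 at a mean normalized count over 300, and 5 to 22 when single libraries were left out. All 16 kept their direction in every one of these fits, and all 16 passed with DESeq2, voom, RLE size factors and no filter. The sex-linked covariate ended the calls of A2m, Mobp, Tspan2, Steap4, S100a11 and Unc13c. In Synpo+/+ CA3 (397 genes) the counts were 258 with RLE size factors, 2716 without the filter and 1477 with DESeq2. The genotype difference (0 genes) gave 160 without the filter and 379 with DESeq2, and the region difference (284 genes) 177 at a mean count over 300 and 662 with DESeq2. The causes were not tested. Synpo changed sign with DESeq2 (-0.00236) and the sex-linked covariate (-0.00176) and over single libraries left out (-0.040 to 0.066), and Homer1 without ECL replicate 4 (over single libraries left out, -0.013 to 0.091). List medians moved by less than the spread between libraries in all alternatives run, though those of interferon-stimulated genes (-0.19 to 0.11) and dentate markers (-0.17 to 0.10), among others near 0, changed sign over single libraries left out.

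Control and ECL libraries share replicate numbers, but the labels do not say whether equal numbers pair the cultures, and the main fits did not pair them. The deviations of same-numbered libraries correlated with -0.193 to 0.290, and not every library correlated best with its own number. With the replicate number as a block, 34 genes passed in Synpo-/- CA3, 154 in the genotype difference and 194 in the region difference.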
